A study of Mus musculus with 9 samples.

Results

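The 10 genes described here encode the core of the G1 control of the cell cycle. They are the D-type cyclins (*Ccnd1*, *Ccnd2* and *Ccnd3*), the E-type cyclins (*Ccne1* and *Ccne2*), the D-type cyclin kinases (*Cdk4* and *Cdk6*), the inhibitors *Cdkn1b* and *Cdkn2a*, and the pocket protein gene *Rb1*. They were taken by symbol from the deposited counts, 10 of 25239 symbols, and all 10 passed the filter on low counts. The set was put together because *Ccnd2* was known to be strongly lower in both mutants and because *Rb1* lies in a region of chromosome 14 that is lower in both, so the members were chosen by the measured difference of each mutant from the control. That difference is given below as a description, with no p-value. Members past the threshold in it are counted only beside all genes or to describe the processing. The RNA-seq data cover 3 lines of E14 mouse embryonic stem cells (ESCs, pluripotent cells derived from the early embryo) with 3 libraries each. The control carried wild-type *Rbbp4* (Rbbp4+/+), and the mutants, Rbbp4Ins/Ins and Rbbp4Ins/Del, were made by CRISPR-Cas9. Ins/Ins ESCs carry an insertion on both alleles, and Ins/Del ESCs carry that insertion on 1 allele and a deletion on the other. All 3 lines share the strain label 12910la and were grown in a serum medium with leukemia inhibitory factor. By the paper's methods, the edited cells were transfected with plasmids for Cas9, guide RNA and puromycin resistance and selected in puromycin before colonies grew. No such step is described for the control, and no other treatment for any line. Each mutant is 1 clone, so the genotype and whatever else sets that clone apart cannot be told apart. The sources used here do not say whether replicates are separate cultures, so p-values measure the spread between these libraries, which may be technical.

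In G1, D-type cyclins bind CDK4 or CDK6, and the kinase phosphorylates the RB1 protein. Phosphorylated RB1 releases E2F transcription factors, which turn on the E-type cyclins and the genes of DNA replication, and cyclin E with CDK2 completes the passage into S phase. The p16INK4a product of *Cdkn2a* blocks CDK4 and CDK6, its other product p19ARF stabilises p53, and p27, the product of *Cdkn1b*, holds cyclin E-CDK2 in check. Mouse ESCs are known for a short G1, abundant cyclin E and RB1 that is phosphorylated through most of the cycle. *Rbbp4*, the mutated gene, encodes a histone-binding protein first described as a partner of RB1 and found in Polycomb repressive complex 2 and in histone deacetylase complexes.

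Library totals were 15838064 to 21366868 counted reads. A normalized count is a gene's count scaled to the mean effective size of the 9 libraries. *Rbbp4* itself had 9932, 9965 and 10117 normalized counts in control, 5485, 5551 and 5776 in Ins/Ins and 10129, 10344 and 10603 in Ins/Del libraries, a log2 difference of -0.84 (adjusted p = 1.8e-25 by the quasi-likelihood test of edgeR, adjusted by Benjamini-Hochberg) in Ins/Ins and 0.05 (adjusted p = 0.11) in Ins/Del. In-frame changes of *Rbbp4* need not lower its RNA, so these values check no label. The labelled cell type was met by its markers, with reads for all 8 ESC genes (*Pou5f1*, *Nanog*, *Sox2* and others) in all 9 libraries and a summed level of 76849 to 80083 normalized counts in control, 95837 to 96899 in Ins/Ins and 98258 to 101023 in Ins/Del ESCs. Over all 14125 tested genes, 58.4% passed an adjusted p of 0.01 in Ins/Ins against control and 62.5% in Ins/Del against control. Both comparisons use the same control libraries.

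*Cdkn2a* is read from a pair of promoters, and counts per symbol sum the p19ARF and p16INK4a transcripts. Both promoters are shown because *Cdkn2a* was the member with the largest difference upwards and because E2F factors released by RB1 are known to act on this locus. The sequences are those of RefSeq on GRCm38.p6, the 250 bases before each start on the minus strand of chromosome 4, with an E2F-type motif in capitals.
p19ARF promoter, chr4:89294620-89294869: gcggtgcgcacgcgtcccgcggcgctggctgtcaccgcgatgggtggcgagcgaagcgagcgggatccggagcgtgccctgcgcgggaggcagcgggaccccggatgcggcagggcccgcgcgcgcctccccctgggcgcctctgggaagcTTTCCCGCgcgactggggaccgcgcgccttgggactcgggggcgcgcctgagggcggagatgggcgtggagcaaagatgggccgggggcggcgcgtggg
p16INK4a promoter, chr4:89282193-89282442: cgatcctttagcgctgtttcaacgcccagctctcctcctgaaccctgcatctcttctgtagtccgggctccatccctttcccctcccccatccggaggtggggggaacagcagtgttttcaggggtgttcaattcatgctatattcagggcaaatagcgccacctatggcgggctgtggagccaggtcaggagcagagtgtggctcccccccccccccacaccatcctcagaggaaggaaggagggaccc
The letters searched on both strands were TTTCCCGC, TTTGGCGC, TTTCGCGC and TTTGCCGC, and matches on opposite strands can share bases. In windows of 250 bases before to 50 after a start, 744 of 32851 RefSeq promoters (2.26%) held at least 1 of them. Promoters were listed for 6 of the 10 members, 8 in all, and not for *Ccnd1*, *Ccnd2*, *Ccne2* and *Rb1*. Of the 8, 1 held a motif, the p19ARF promoter, with TTTCCCGC starting 99 bases before the start. A match describes the letters of the window and says nothing of whether a factor was bound there. Only these exact letters were searched, so a window without a match is not shown to lack E2F sites.

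Per kilobase of exon, the members spanned a wide range of levels in control ESCs. *Cdk4* stood first at 2369.9 ± 69.0 normalized counts per kilobase (SD, n = 3), followed by *Ccne1* at 1144 ± 43.5 and *Ccnd1* at 566 ± 14.8. *Ccnd3* came next at 213, then *Cdkn1b* at 147, *Cdk6* at 139, *Ccne2* at 121, *Rb1* at 95.9 and *Cdkn2a* at 81.2. *Ccnd2* was last at 47.4 ± 1.80. The libraries of no pair of neighbours in this order overlapped in control, although *Cdkn1b* and *Cdk6* trade places when the longest transcript replaces the union of exons as the length.

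**Figure D1:**
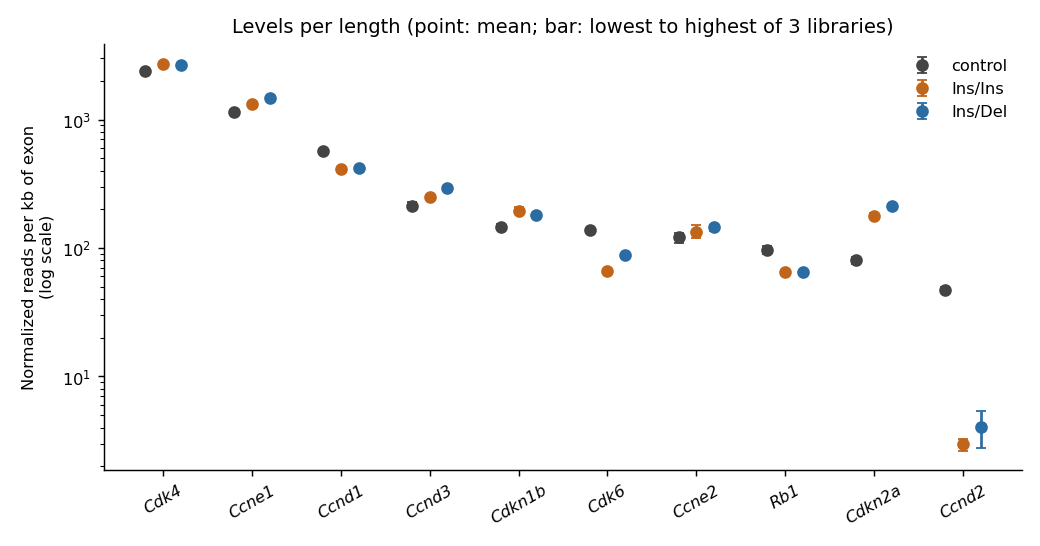
Level of each member in normalized counts per kilobase of exon (log axis) for control, Ins/Ins and Ins/Del libraries; points are group means and bars run from the lowest to the highest of the 3 libraries. *Cdk4* and *Ccne1* head the order in each line, and *Ccnd2* is last in each, at 47.4 in control, 2.97 in Ins/Ins and 4.03 in Ins/Del ESCs.

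With exon unions, the first 4 places and the last place were held by the same genes in all 3 lines, and the order changed in between. In Ins/Ins ESCs *Cdkn2a* stood sixth at 177 per kilobase, with libraries that overlapped those of *Cdkn1b* at 196. In Ins/Del ESCs *Cdkn2a* was ahead, at 214 against 180.4, without overlap. *Cdk6* was eighth in both mutants, at 66.3 in Ins/Ins, where its libraries overlapped those of *Rb1* at 65.4, and at 87.6 in Ins/Del, where they did not overlap those of *Rb1* at 65.3. With the longest transcript as the length, *Ccnd3* stood ahead of *Ccnd1* in both mutants.

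Of the 10 members, 5 were past the threshold upwards and 4 downwards in Ins/Ins, against 29.0% and 29.4% of all tested genes, and 6 upwards and 4 downwards in Ins/Del, against 30.6% and 31.9%. The libraries of 9 members in Ins/Ins and 10 in Ins/Del did not overlap those of the control, which held for 69.1% and 72.8% of all tested genes. Over 2-fold and past the threshold were 3 members in Ins/Ins (*Ccnd2*, *Cdk6* and *Cdkn2a*), 2 in Ins/Del (*Ccnd2* and *Cdkn2a*) and 0 between the mutants, against 16.0%, 18.6% and 0.361% of all tested genes. These contrasts with control chose the set, so nothing is read from the counts. The members' median log2 difference was 0.15 in Ins/Ins and 0.21 in Ins/Del, with 0.004 and -0.011 over all tested genes.

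**Figure D2:**
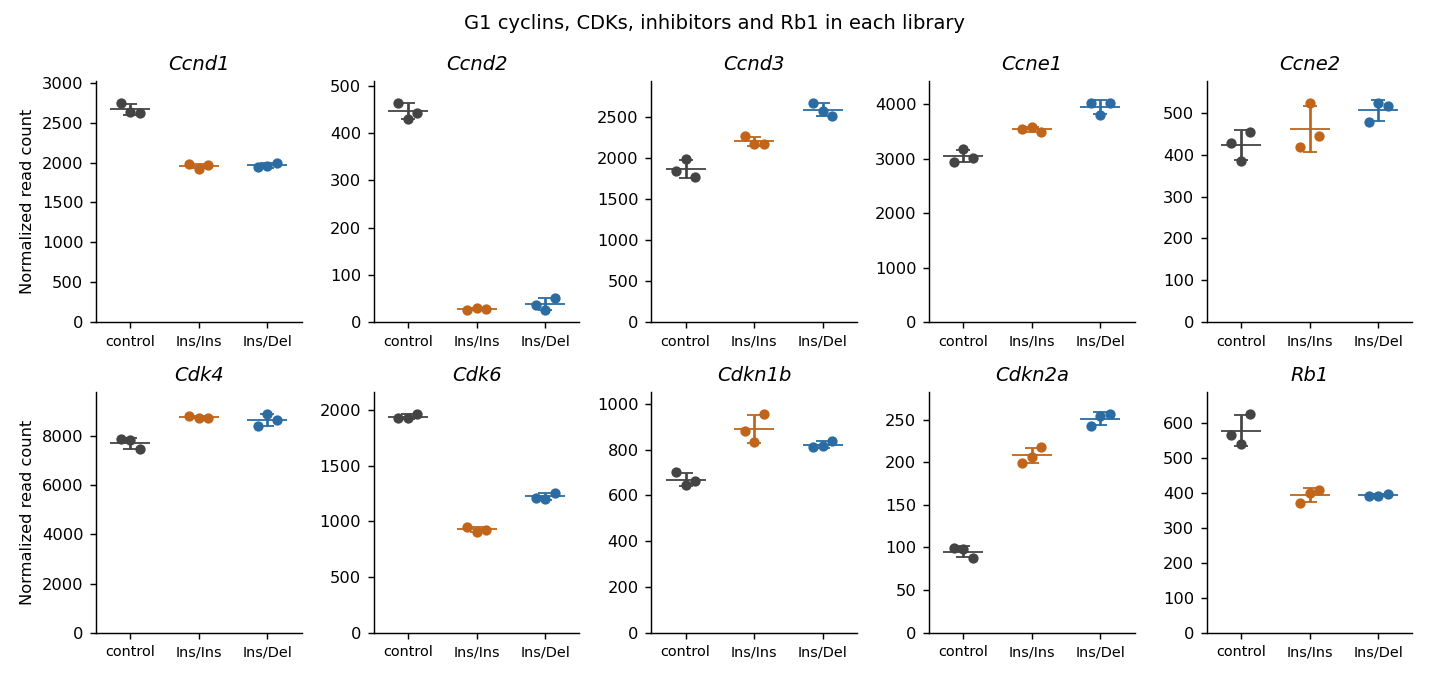
Normalized counts of each member in the 9 libraries, one panel a gene with its own linear axis from 0; points are libraries, and lines are means with SD for control, Ins/Ins and Ins/Del. *Ccnd2*, *Cdk6*, *Ccnd1* and *Rb1* lie lower in both mutants, and the control and Ins/Ins points mix for *Ccne2*.

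The D-type cyclins differed from control in both directions. *Ccnd2* (chr6:127125162-127152193 on mm10, minus strand), the cyclin D known from haematopoietic and neural progenitors, was far lower in both mutants. *Ccnd2* had normalized counts of 464, 431 and 444 in control, of 24.8, 30.5 and 28.5 in Ins/Ins and of 36.8, 26.2 and 50.9 in Ins/Del libraries. The reads behind these values were 543, 411 and 410 in control, 29, 27 and 27 in Ins/Ins and 36, 29 and 44 in Ins/Del, so every mutant library lay far below every control library. The mean was 446 ± 17.0 in control (SD, n = 3), 27.9 ± 2.88 in Ins/Ins and 38.0 ± 12.4 in Ins/Del, 16.0-fold and 11.8-fold lower, with log2 differences of -4.01 (SE 0.13) and -3.59 (SE 0.13). The mutants overlapped each other, and Ins/Del differed from Ins/Ins by 0.42 (SE 0.22) on the log2 scale (adjusted p = 0.2). That difference was 0.65 without Ins/Del replicate 2 (adjusted p = 0.051) and 0.17 without Ins/Del replicate 3 (adjusted p = 0.71). In bulk RNA, fewer cells that express a gene and less of its RNA per cell cannot be told apart.

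Markers of some other cell types were lower along with *Ccnd2*. The sum of 6 primitive endoderm markers overlapped control (1693 to 1827 normalized counts) in Ins/Ins (1664 to 1781). That sum was higher in Ins/Del (2289 to 2309). Of the 10 markers of fibroblasts, feeders or smooth muscle, 8 were tested, and 7 fell and 1 (*Thy1*) rose in each mutant, with a summed level of 3979 to 4226 normalized counts in control, 466 to 517 in Ins/Ins and 539.6 to 577 in Ins/Del. *Tagln*, a smooth muscle gene, had a mean of 1994 in control against 72.4 and 32.5. The collagen gene *Col3a1* and *Postn* were at 3 reads or fewer in each mutant library. In control *Col3a1* had 35, 32 and 28 reads, and *Postn*, which was not tested, had only 11, 8 and 9. The summed level of 5 neural progenitor markers was 2558 to 2566 in control, 413 to 443 in Ins/Ins and 383 to 417 in Ins/Del, with *Pax6* and *Nes* lower in both mutants among 3 tested. Trophectoderm markers gave 3602 to 3998, 899 to 977 and 692 to 751, with *Cdx2*, *Krt8* and *Krt18* lower and *Eomes* higher in both mutants among 4 tested. Of all tested genes, 29.4% fell and 29.0% rose in Ins/Ins, and 31.9% fell and 30.6% rose in Ins/Del. The part of these markers in the level of *Ccnd2* was not tested.

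*Ccnd1* (chr7:144929931-144939925, minus strand), the D-type cyclin that growth factor signals induce in most tissues, was lower by about the same amount in both mutants. *Ccnd1* had normalized counts of 2747, 2631 and 2621 in control, of 1980.2, 1925 and 1963 in Ins/Ins and of 1938, 1962 and 1992 in Ins/Del libraries. Each mutant library lay below each control library. The mean was 26.6% lower in Ins/Ins and 26.3% lower in Ins/Del, log2 differences of -0.45 (SE 0.035) and -0.44 (SE 0.035). The mutants overlapped, with a log2 difference of 0.0050 (SE 0.036, adjusted p = 0.95) between them. Exons of *LTO1* on the other strand overlap 23.4% of the *Ccnd1* exon length, and the counting may not have used strand. *LTO1* stood at 246 normalized counts in control and fell by 0.30 in Ins/Ins (adjusted p = 0.0091) and by 0.33 in Ins/Del (adjusted p = 0.0036) on the log2 scale.

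*Ccnd3* (chr17:47505051-47599691, plus strand), the D-type cyclin of late lymphoid and muscle differentiation, was higher in the mutants. *Ccnd3* had normalized counts of 1844, 1990.3 and 1767 in control, of 2270.1, 2173 and 2176 in Ins/Ins and of 2672, 2579 and 2515 in Ins/Del libraries. The lines did not overlap, and Ins/Ins lay between control and Ins/Del. The mean was 18.2% higher in Ins/Ins and 38.7% higher in Ins/Del, log2 differences of 0.24 (SE 0.040) and 0.47 (SE 0.039). Exons of *Bysl* overlap 4.11% of its exon length on the opposite strand.

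The makeup of the D-type cyclin pool differed. The sum of the 3 genes per kilobase of exon was 826 ± 19.3 in control, 669.8 ± 11.2 in Ins/Ins and 716 ± 3.43 in Ins/Del (SD, n = 3), 19.0% and 13.3% lower. With the longest transcript as the length, an alternative added after the data were seen, the sum was 13.3% and 5.14% lower. *Ccnd2* made up 5.74% ± 0.204 of that sum in control, 0.444% ± 0.0529 in Ins/Ins and 0.563% ± 0.184 in Ins/Del. The share of *Ccnd1* was 68.5%, 62.0% and 58.2%, and that of *Ccnd3* was 25.7%, 37.5% and 41.2%. Which of them led in the mutants depended on the length used, since with the longest transcript *Ccnd3* held 52.0% and 55.8% against 47.6% and 43.7% for *Ccnd1*. In control *Ccnd1* led with either length (56.3% against 38.2% with the longest transcript).

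The genes with the pattern closest to *Ccnd2* over the 9 libraries were *Gbp7*, *Gsap*, *Fgf17*, *Hivep2* and *Pxdc1*, ranked among 12711 genes whose normalized counts averaged over 20, using the Euclidean distance of centred log2 values. *Gbp7*, an interferon-induced guanylate-binding protein, was nearest at a distance of 0.381, with 159.9, 137 and 160.2 normalized counts in control, 7.70, 9.03 and 7.40 in Ins/Ins and 9.20, 7.22 and 15.0 in Ins/Del libraries. The other distances were 0.75 for *Gsap*, 0.778 for the growth factor gene *Fgf17*, 0.855 for *Hivep2* and 0.92 for *Pxdc1*. The 5 lie on 5 chromosomes, and none on chromosome 6 with *Ccnd2*. By Pearson correlation in place of distance, 1 of the 5 (*Gbp7*) was again among the nearest 5.

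The genes around *Ccnd2* on chromosome 6 differed by side. Among the 10 nearest tested genes on each side (chr6:125349362-128424931), 9 rose and 5 fell in Ins/Ins (against 29.0% and 29.4% of all tested genes), and 11 rose and 5 fell in Ins/Del (against 30.6% and 31.9%), with median log2 differences of 0.37 and 0.48. The nearest gene at lower coordinates, *Tigar*, a regulator of glycolysis, rose by 0.80 in Ins/Ins (adjusted p = 2.6e-19) and 0.79 in Ins/Del (adjusted p = 4.6e-19). The nearest at higher coordinates, *Parp11*, fell by 0.82 (adjusted p = 2.6e-09) and 0.97 (adjusted p = 7.4e-11). *Prmt8*, an arginine methyltransferase gene of neurons, fell by 2.89 (adjusted p = 5.9e-18) and 2.48 (adjusted p = 9.3e-17), and 4 neighbours (*Fgf23*, *Dyrk4*, *Vwf* and *Plekhg6*) rose over 2-fold in both mutants. The 10 genes at lower coordinates all lay above control in both mutants, and the 5 that fell all lay at higher coordinates. None of the 20 was as far below control as *Ccnd2*.

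Of the E-type cyclins, *Ccne1* was higher in both mutants, and *Ccne2* was higher without overlap in Ins/Del alone. *Ccne1* (chr7:38097984-38107534, minus strand) provides most of the cyclin E RNA of these cells, 90.4% of the sum per kilobase in control. *Ccne1* had normalized counts of 2944, 3171 and 3018 in control, of 3535, 3585 and 3489.6 in Ins/Ins and of 4019.6, 3799 and 4013 in Ins/Del libraries. The 3 lines did not overlap, and the Ins/Del libraries were highest. The mean was 16.2% higher in Ins/Ins and 29.5% higher in Ins/Del, log2 differences of 0.22 (SE 0.034) and 0.37 (SE 0.034). *Ccne2* had normalized counts of 428, 384 and 455 in control, of 417, 524 and 445 in Ins/Ins and of 477, 523 and 517 in Ins/Del libraries. The Ins/Ins libraries overlapped those of the control, and the lowest Ins/Del library stood just above the highest control library. The mean of *Ccne2* (chr4:11191351-11204779, plus strand) was 9.36% higher in Ins/Ins and 19.8% higher in Ins/Del, log2 differences of 0.12 (SE 0.076) and 0.26 (SE 0.075). Without control replicate 2 the Ins/Del difference was 0.21 and without Ins/Del replicate 2 it was 0.23, and it no longer passed the threshold in either case. The Ins/Ins difference of *Ccne2* rested on single libraries more, with 0.07 without control replicate 2, 0.21 without Ins/Ins replicate 1 and 0.03 without Ins/Ins replicate 2. *Ints8* on the opposite strand overlaps 17.4% of its exon length and fell by 0.14 (adjusted p = 0.0011) and 0.21 (adjusted p = 8.4e-06). The sum of both E-type cyclins per kilobase was 1264 ± 36.4 in control, 1461 ± 31.4 in Ins/Ins and 1626 ± 43.1 in Ins/Del, 15.5% and 28.6% higher.

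The kinases of the D-type cyclins differed in opposite directions. *Cdk6* had normalized counts of 1929, 1926 and 1967 in control, of 954, 905 and 925 in Ins/Ins and of 1214, 1201 and 1259 in Ins/Del libraries. *Cdk6* (chr5:3341485-3531008, plus strand), abundant in haematopoietic cells, was lower in each mutant library than in any control library, and the Ins/Ins libraries were lowest. The mean was 52.2% lower in Ins/Ins and 36.9% lower in Ins/Del, log2 differences of -1.06 (SE 0.042) and -0.67 (SE 0.040). *Cdk4* had normalized counts of 7849.9, 7807 and 7442 in control, of 8804, 8733 and 8704 in Ins/Ins and of 8395, 8892 and 8638 in Ins/Del libraries. *Cdk4* (chr10:127063534-127067920, plus strand) was higher in each mutant library than in any control library, with overlapping mutants. Its mean was 13.6% and 12.2% higher, log2 differences of 0.18 (SE 0.029) and 0.17 (SE 0.029). *Tspan31* covers 19.7% of the *Cdk4* exon length from the opposite strand, with log2 differences of 0.03 (adjusted p = 0.56) and -0.04 (adjusted p = 0.43). *Cdk4* provided most of the kinase RNA per kilobase, so the sum of both was 2509 ± 67.3 in control, 2759 ± 17.2 in Ins/Ins and 2747 ± 76.0 in Ins/Del. The share of *Cdk6* in it was 5.53% ± 0.217, 2.40% ± 0.0521 and 3.19% ± 0.128 in the same order.

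Both inhibitors were higher in the mutants. *Cdkn2a* had normalized counts of 99.2, 98.5 and 87.7 in control, of 199, 207 and 218 in Ins/Ins and of 242, 254 and 257 in Ins/Del libraries. *Cdkn2a* (chr4:89274471-89294653, minus strand), a locus that Polycomb complexes are known to silence in dividing cells, was higher in every mutant library than in any control library, and Ins/Ins and Ins/Del did not overlap. The mean was 2.19-fold and 2.64-fold that of the control, log2 differences of 1.12 (SE 0.11) and 1.39 (SE 0.10). *Cdkn1b* had normalized counts of 701, 643 and 663 in control, of 880.2, 835 and 957 in Ins/Ins and of 809.6, 817 and 838 in Ins/Del libraries. *Cdkn1b* (chr6:134920401-134925513, plus strand) was higher in each mutant library than in any control library, by 33.1% and 22.8% in the mean, log2 differences of 0.41 (SE 0.055) and 0.29 (SE 0.056).

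Of the 5 other CDK inhibitor genes, 1 rose and 1 fell in each mutant (against 58.4% and 62.5% of all tested genes called), and 3 did not pass the test, with median log2 differences of -0.24 and -0.15. *Cdkn1a*, which encodes the p53-induced inhibitor p21, rose from 501 ± 14.4 normalized counts in control (SD, n = 3) to 1552 ± 32.5 in Ins/Ins and 1571 ± 84.7 in Ins/Del. Its log2 changes were 1.63 (SE 0.051) (adjusted p = 6.1e-27, edgeR) and 1.65 (SE 0.051) (adjusted p = 3.3e-27). *Cdkn1c*, named after its values were seen and encoding p57, fell by 0.35 (adjusted p = 2.4e-06) and 0.21 (adjusted p = 0.0013). *Cdkn2b*, the p15INK4b gene next to *Cdkn2a*, had means of 88.0, 71.9 and 71.7, with log2 differences of -0.28 (adjusted p = 0.11) and -0.28 (adjusted p = 0.1).

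*Rb1* (chr14:73183673-73325822, minus strand), the pocket protein that D-type cyclin kinases phosphorylate, was lower by about the same amount in both mutants. *Rb1* had normalized counts of 563, 541 and 626 in control, of 372, 399 and 409 in Ins/Ins and of 391, 392 and 396 in Ins/Del libraries. No mutant library reached the lowest control library. The mean was 577 ± 44.1 in control (SD, n = 3), 394 ± 19.2 in Ins/Ins and 393 ± 2.74 in Ins/Del, 31.7% and 31.9% lower, with log2 differences of -0.55 (SE 0.067) and -0.55 (SE 0.067). Exons of *Rcbtb2* and *Lpar6* on the other strand overlap 8.11% and 6.78% of the *Rb1* exon length. *Lpar6*, a lysophosphatidic acid receptor gene inside an *Rb1* intron, had a mean of 804 in control against 62.2 and 36.7 in the mutants, and *Rcbtb2* had 1017 against 138 and 94.2. How these overlaps affect the *Rb1* counts was not tested.

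The genes around *Rb1* were lower too, and most by more than *Rb1* itself. The 10 nearest tested genes on each side span chr14:70552212-75344426. In each mutant 17 of the 20 were past the threshold downwards (against 29.4% and 31.9% downwards over all tested genes), and 12 were lower by over 2-fold. Upwards, 0 passed in edgeR and 0 in DESeq2, with 1 in Ins/Ins and 0 in Ins/Del at an unadjusted p under 0.05. Their median log2 difference was -1.12 in Ins/Ins and -1.19 in Ins/Del, and 18 of the 20 lay below the -0.55 of *Rb1* in Ins/Ins and 18 in Ins/Del. The lowest were *Lpar6* at -4.45 in Ins/Del and *Fgf17* at -3.80 in Ins/Ins. Over the whole chromosome, 293 of 461 tested genes were past the threshold downwards and 53 upwards in Ins/Ins, and 291 and 58 in Ins/Del, with median log2 differences of -0.58 and -0.60. Since the region was a reason for including *Rb1*, its neighbours are described here and support nothing on *Rb1*. With all of chromosome 14 left out of the fit, the log2 differences of the other 9 members kept their direction and their side of the threshold.

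**Figure D3:**
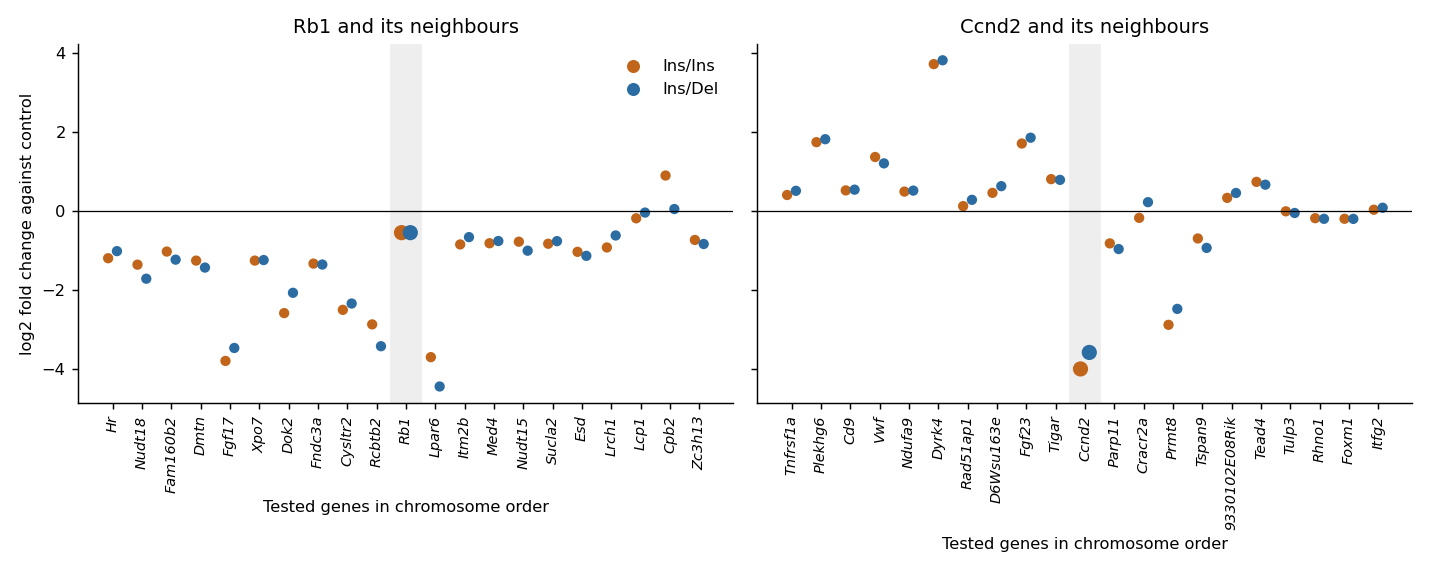
Log2 fold change against control of *Rb1* and *Ccnd2* and of the 10 nearest tested genes on each side, ordered by position, for Ins/Ins and Ins/Del. Around *Rb1* (-0.55 in both mutants) 19 of 20 genes lie below 0 in each mutant, whereas around *Ccnd2* (-4.01 and -3.59) 7 and 6 of 20 do. The genes below 0 around *Ccnd2* all lie at higher coordinates.

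Among the other pocket proteins and the E2F and DP factors, 12 genes in all, 5 rose and 5 fell in Ins/Ins, and 4 rose and 6 fell in Ins/Del, against 58.4% and 62.5% of all tested genes called in either direction, with median log2 differences of -0.05 and -0.10. *E2f2*, an activator E2F, rose from 178 ± 5.32 normalized counts to 431 ± 47.2 in Ins/Ins and 521 ± 24.1 in Ins/Del, by 1.29 (SE 0.085) (adjusted p = 2.2e-16) and 1.55 (SE 0.083) (adjusted p = 2.2e-19) on the log2 scale. *E2f6*, a repressor that works without pocket proteins, fell by 0.66 (adjusted p = 7.0e-12) and 0.73 (adjusted p = 4.9e-13). The *Rb1* relatives *Rbl1* and *Rbl2*, which encode p107 and p130 and were singled out after their values were seen, rose in both mutants. *Rbl1* rose by 0.38 (adjusted p = 1.4e-07) and 0.52 (adjusted p = 5.9e-11), and *Rbl2* by 0.52 (adjusted p = 3.6e-06) and 0.54 (adjusted p = 1.6e-06).

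Among 17 E2F target genes of G1/S, 8 rose and 0 fell in Ins/Ins, and 8 rose and 1 (*Mcm4*) fell in Ins/Del. The shares of all tested genes were 29.0% and 30.6% upwards and 29.4% and 31.9% downwards. In either direction 47.1% and 52.9% of the 17 were called, against 58.4% and 62.5% of all tested genes. In the downward direction in Ins/Ins, edgeR gave 0 calls with 1 gene at an unadjusted p under 0.05, and DESeq2 gave 1. The median log2 differences were small, 0.12 and 0.07. *Rrm2*, the ribonucleotide reductase subunit made in S phase, rose by 0.47 (SE 0.029) (adjusted p = 3.9e-17) and 0.50 (SE 0.029) (adjusted p = 5.4e-18). Thymidine kinase, *Tk1*, rose from 397 ± 29.3 to 517 ± 21.3 and 656 ± 58.1 normalized counts, by 0.38 (adjusted p = 1.2e-05) and 0.72 (adjusted p = 5.2e-12). Of 8 other G1/S cyclin and kinase genes, 7 were tested, and 2 rose and 3 fell in Ins/Ins, and 1 rose and 4 fell in Ins/Del, against the same 58.4% and 62.5% called. *Cdk2*, the partner of cyclin E, rose by 0.27 (SE 0.038) (adjusted p = 8.0e-08) and 0.26 (SE 0.038) (adjusted p = 1.7e-07). *Ccnh*, the cyclin of the CDK-activating kinase, fell by 0.27 (adjusted p = 3.4e-06) and 0.28 (adjusted p = 2.4e-06). *Ccna1*, a germ cell cyclin, was not tested, at 3 to 10 reads a library.

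Of 11 transcription factor genes known to act on D-type cyclin genes, 6 fell and 1 rose in Ins/Ins, and 6 fell and 2 rose in Ins/Del, against 29.4% and 31.9% of all tested genes downwards and 29.0% and 30.6% upwards, with median log2 differences of -0.31 and -0.31. The N-Myc gene *Mycn* went from 5553 ± 128 normalized counts in control to 2321 ± 27.3 in Ins/Ins and 1643 ± 36.5 in Ins/Del, falling by 1.26 (adjusted p = 1.1e-29) and 1.76 (adjusted p = 8.0e-34) on the log2 scale. *Mycl* fell by 1.21 (adjusted p = 2.5e-13) and 1.23 (adjusted p = 1.5e-13). *Myc*, named for the family after its value was seen, fell by 0.53 in Ins/Ins (adjusted p = 1.3e-11), and its difference in Ins/Del was -0.10 (adjusted p = 0.081). The AP-1 subunit gene *Jun* fell from 466 to 144 and 106 normalized counts, by 1.70 (adjusted p = 3.2e-19) and 2.12 (adjusted p = 1.3e-21). *Tcf7*, a transcription factor of the Wnt pathway, fell by 1.06 (adjusted p = 6.0e-22) and 1.28 (adjusted p = 2.5e-24). The genes that rose were *Foxo3*, a forkhead factor, by 0.26 (adjusted p = 3e-05) and 0.62 (adjusted p = 3.1e-14), and *Lef1* in Ins/Del. *Lef1*, a Wnt pathway factor, rose by 0.38 (adjusted p = 3e-07) there, with 0.02 (adjusted p = 0.81) in Ins/Ins. *Foxo1* fell by 0.31 (adjusted p = 5.1e-08) and 0.39 (adjusted p = 2.3e-10). *Tcf7l1* fell by 0.31 in Ins/Del (adjusted p = 3.5e-09), with -0.09 (adjusted p = 0.037) in Ins/Ins. *Foxo3*, *Lef1*, *Foxo1* and *Tcf7l1* were named after their values were seen. The list does not separate factors that activate D-type cyclin genes from factors that repress them.

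**Figure D4:**
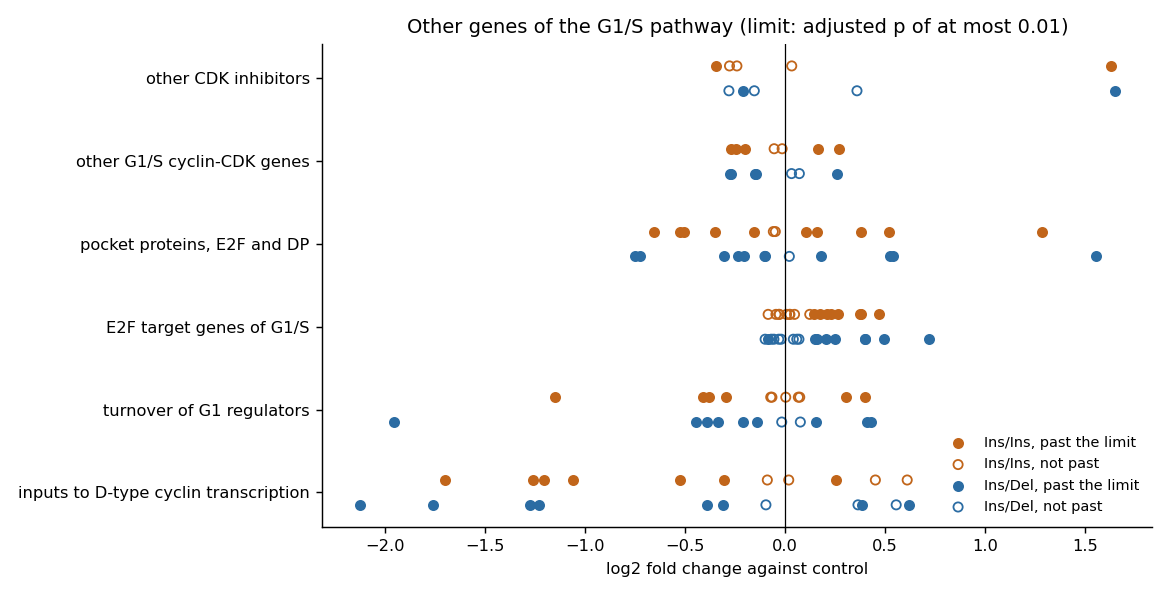
Log2 fold change against control of each tested gene in the lists around the 10 members, for Ins/Ins and Ins/Del; filled points passed an adjusted p of 0.01, and open points did not. *Cdkn1a* (1.63 and 1.65) and *E2f2* (1.29 and 1.55) stand highest, and *Jun* (-1.70 and -2.12) and *Mycn* (-1.26 and -1.76) are among the lowest.

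The direct comparison of the mutants was not used to choose the members and was tested. By edgeR, 3 of the 10 were higher and 0 lower in Ins/Del than in Ins/Ins (1 lower at an unadjusted p under 0.05, 0 lower by DESeq2), against 6.17% and 4.64% of all tested genes, and the median absolute difference of all tested genes was 0.11 on the log2 scale. Of the members past the threshold, *Cdk6* differed most, by 0.40 (SE 0.044) (adjusted p = 1.2e-08), its mean being 1225 ± 30.3 normalized counts in Ins/Del and 928 ± 24.5 in Ins/Ins. *Ccnd3* was higher by 0.23 (SE 0.039) (adjusted p = 2.6e-05) and *Ccne1* by 0.16 (SE 0.033) (adjusted p = 0.00066). For these 3 genes, every Ins/Del library lay above every Ins/Ins library, as was the case in either direction for 34.1% of all tested genes. *Cdkn2a* also showed no overlap, with 0.27 (SE 0.090), but its adjusted p of 0.028 missed the threshold. The other members differed by 0.42 (SE 0.22) for *Ccnd2*, 0.14 (SE 0.074) for *Ccne2* (adjusted p = 0.19), -0.12 (SE 0.054) for *Cdkn1b* (adjusted p = 0.13), -0.02 (SE 0.029) for *Cdk4* (adjusted p = 0.74) and 0.00 (SE 0.071) for *Rb1* (adjusted p = 1). *Ccnd2*, with few reads in either mutant, had the widest error of the 10.

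**Figure D5:**
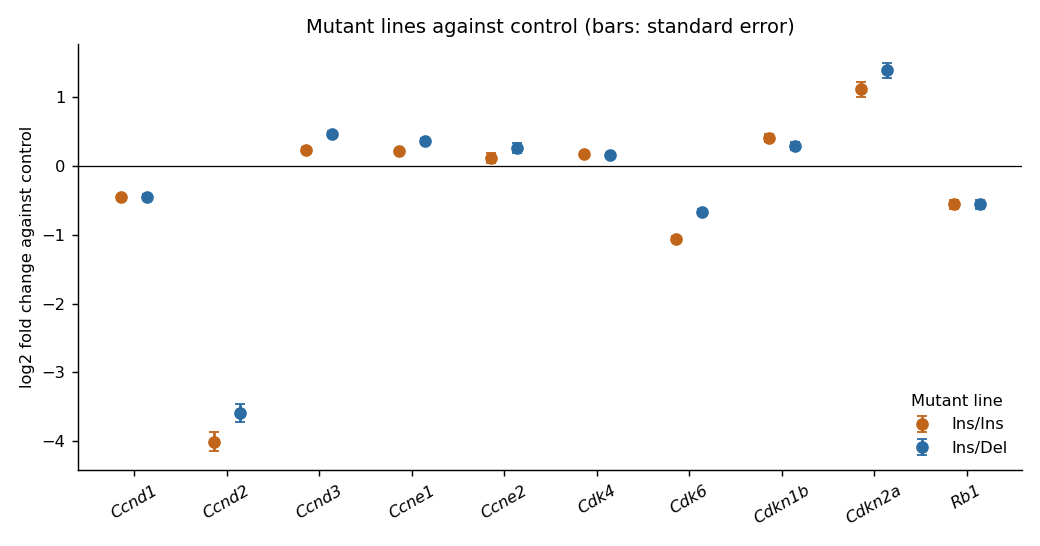
Log2 fold change of each member in Ins/Ins and in Ins/Del against control; bars are 1 SE from edgeR's quasi-likelihood fit. *Ccnd2* stands apart at -4.01 and -3.59, *Cdkn2a* is highest at 1.12 and 1.39, and *Cdk6* is the member whose mutants are farthest apart relative to their errors (-1.06 and -0.67).

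Around the members, 2 of the 12 pocket protein, E2F and DP genes (*E2f2* and *E2f8*) were higher in Ins/Del than in Ins/Ins. Of the 17 E2F targets, 2 (*Rrm1* and *Tk1*) were higher, against 6.17% of all tested genes for both lists. In either list 0 were lower by edgeR or DESeq2 (3 in each at an unadjusted p under 0.05 in edgeR), against 4.64%. DESeq2 called 1 of the 12 and 2 of the 17 higher. *Tk1* was higher by 0.34 (SE 0.065) (adjusted p = 0.00019) and *E2f2* by 0.27 (SE 0.071) (adjusted p = 0.0064), while *E2f8* and *Rrm1*, named after their values were seen, were higher by 0.27 (adjusted p = 0.00032) and 0.11 (adjusted p = 0.0096). Of the 5 other CDK inhibitors and the 7 other G1/S cyclin and kinase genes tested, 0 passed by edgeR or by DESeq2. At an unadjusted p under 0.05 in edgeR there were 1 and 3, and 10.8% of all tested genes passed the adjusted test. Among the transcription factors that act on D-type cyclins, 3 of 11 were higher and 4 lower in Ins/Del, against 6.17% and 4.64% of all tested genes. *Mycn* was lower by a further 0.50 (adjusted p = 2.0e-13), and *Jun* by 0.42 (adjusted p = 0.0093). *Tcf7* was lower by 0.215 (adjusted p = 0.003), and *Tcf7l1*, named after its values were seen, by 0.22 (adjusted p = 4.2e-05). The 3 that were higher, named after their values were seen, were *Myc* by 0.43 (adjusted p = 5.5e-08), *Foxo3* by 0.37 (adjusted p = 2.9e-07) and *Lef1* by 0.36 (adjusted p = 1.1e-05).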

How the data were processed

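RNA-seq was read from 3 libraries each of control, Ins/Ins and Ins/Del ESCs, grouped by their genotype labels. Libraries were made by the authors from total RNA (Kapa mRNA HyperPrep) and read as paired ends of 50 bp, which STAR 2.7.3 placed on mm10 and HTSeq counted. The HTSeq version, strand setting and annotation are not given in the sources used here. How reads were assigned where opposite genes overlap is therefore not known. The values deposited by the authors are whole-number read counts for each symbol and are not normalized. The authors' own test was DESeq2 1.22.2.

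These counts were analysed in R 4.3.3 with edgeR 4.0.16. TMM factors were 0.993 to 1.016, filterByExpr removed low counts, and 1 quasi-likelihood fit (glmQLFit, glmQLFTest) covered the 9 libraries, with the line as its only term. P-values were adjusted by Benjamini-Hochberg over 14125 tested genes, with a threshold of 0.01. SE is the absolute log2 fold change over the square root of F. Positions and lengths came from GENCODE M21 (24366 of 25239 symbols matched). Tables were made with Python 3.11.15 and pandas 2.3.3. Replicate libraries differed by more than counting noise (chi-square per gene 1.87 to 4.62), so none was merged. The fit was checked on simulated data.

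The members, gene lists and tests were chosen with earlier results of these data known. Named were all members, *Rbbp4*, list genes past the threshold in both mutants and over 2-fold in at least 1 (otherwise the 2 with the largest mean difference), genes overlapping a member, the nearest and over 2-fold neighbours of *Rb1* and *Ccnd2*, and the 5 genes most like *Ccnd2*. Alternatives were DESeq2 1.42.0, its size factors, library totals, all genes with a read, a fit of the compared groups alone, a block for the replicate number, leaving out each library, no chromosome 14, a threshold of 0.05, another gene length and another measure of likeness.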

Additional observations from a re-analysis of the deposited data

Results flagged for a closer look

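For 3 of the 10 members, the difference from control was not the same in the mutant lines, by edgeR's quasi-likelihood test of Ins/Del against Ins/Ins. That test called 10.8% of all tested genes. *Cdk6* was lower than control in both lines and by less in Ins/Del, with a log2 difference between the lines of 0.40 (adjusted p = 1.2e-08, range over the alternatives 0.38 to 0.42). *Ccnd3* was higher than control in both lines and by more in Ins/Del, with a log2 difference of 0.23 (adjusted p = 2.6e-05, range 0.21 to 0.25). *Ccne1* was likewise higher in both and by more in Ins/Del, with 0.16 (adjusted p = 0.00066, range 0.14 to 0.18). In each of the 3 genes, every Ins/Del library lay above every Ins/Ins library. The libraries of the mutants did not overlap, in either direction, for 34.1% of all tested genes. Each line is a single clone, so allele and clone cannot be told apart. Groups of 3 libraries were not searched for single libraries that stand apart.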

How the results depend on the processing

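The threshold, the tool, the scaling, the filter, the libraries in the fit and the length were each changed in turn. All 159 log2 differences of members in Ins/Ins against control that these alternatives gave kept their direction and their side of the threshold, as did 157 of 159 in Ins/Del against control. The exceptions were both *Ccne2*, which no longer passed without control replicate 2 (0.21) or without Ins/Del replicate 2 (0.23). The contrasts with control chose the members, so stable calls in them describe the processing and support no difference. In Ins/Del against Ins/Ins 150 of 159 did so, and the 9 others were sign changes of differences near 0 that never passed the threshold. These member counts keep the threshold at 0.01. At 0.05 *Cdkn2a* (adjusted p = 0.028, edgeR) would pass in Ins/Del against Ins/Ins. With 1 library left out, *Ccnd2* ranged from 0.17 to 0.65, *Ccne2* from 0.067 to 0.23, *Cdkn1b* reached -0.066 without Ins/Ins replicate 3, *Ccnd1* ranged from -0.0063 to 0.015, *Cdk4* from -0.039 to 0.0032 and *Rb1* from -0.043 to 0.029. *Rb1* gave -0.0024 with library totals, -0.0026 with all genes that had a read and -0.00039 with only the compared groups. The number of genes past the threshold between the mutants was 1527 (872 higher, 655 lower in Ins/Del) and became 2682 (1426 and 1256) at an adjusted p of 0.05. With 1 library left out it ranged from 988 to 1646, with 576 to 943 higher and 406 to 703 lower, the low values coming without Ins/Ins replicate 1 (1014 genes), without Ins/Del replicate 2 (988 genes) and, for lower genes, without Ins/Del replicate 3 (422). Of the 20 *Rb1* neighbours, 1 was higher and 2 lower in Ins/Del than in Ins/Ins, against 6.17% and 4.64% of all tested genes. At an adjusted p of 0.05, 3 were higher, and 1 to 2 were lower with 1 library left out (1 without Ins/Ins replicate 2, without Ins/Del replicate 2 or without Ins/Del replicate 3). By Pearson correlation, 1 of the 5 genes most like *Ccnd2* remained. Of 1932 counts over the gene lists, 1874 stayed within 1.5 times and 58 did not. Other scalings moved the median of all genes by at most 0.016 on the log2 scale.

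The replicate numbers did not pair the libraries, since deviations of same-numbered libraries correlated at -0.028 to 0.056. With the replicate number as a block, 8225, 8795 and 1499 genes passed in Ins/Ins against control, Ins/Del against control and Ins/Del against Ins/Ins, compared with 8252, 8829 and 1527 without it, and the members called stayed at 9, 10 and 3. Depth limits *Ccnd2* most, which had 27 to 44 reads in a mutant library.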

Other observations

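Genes of the machinery that degrades G1 regulators were called in both directions, as all tested genes were. Of 11 turnover genes, 2 rose and 4 fell in Ins/Ins, and 3 rose and 6 fell in Ins/Del, against 58.4% and 62.5% of all tested genes called in either direction, with median log2 differences of -0.07 and -0.14. *Skp2*, the F-box protein that marks p27 for degradation, fell from 1579 ± 59.0 normalized counts in control (SD, n = 3) to 1217 ± 25.7 in Ins/Ins and 1163 ± 29.6 in Ins/Del, by 0.38 (adjusted p = 4.6e-10, edgeR) and 0.44 (adjusted p = 9.0e-12) on the log2 scale. *Fbxo4*, an F-box gene expressed at a low level here, had 36.8, 32.5 and 37.9 normalized counts in control, 13.7, 12.4 and 22.2 in Ins/Ins and 8.18, 11.7 and 6.94 in Ins/Del libraries, and fell by 1.15 (adjusted p = 0.00036) and 1.95 (adjusted p = 7.3e-07). *Rbx1* and *Cdc34* rose in both mutants. *Rbx1* rose by 0.40 (adjusted p = 2.4e-10) and 0.41 (adjusted p = 1.1e-10), and *Cdc34* by 0.305 (adjusted p = 3.7e-11) and 0.43 (adjusted p = 2.1e-15). Between the mutants, 1 of the 11 (*Cdc34*) was higher and 1 (*Skp1a*) lower in Ins/Del, against 6.17% and 4.64% of all tested genes. *Rbx1*, *Cdc34* and *Skp1a* were named after their values were seen.

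Markers of early embryonic lineages were not uniformly lower in the mutants. Of 6 primitive endoderm genes, 1 rose and 2 fell in Ins/Ins, and 4 rose and 2 fell in Ins/Del, with summed levels of 1693 to 1827 normalized counts in control, 1664 to 1781 in Ins/Ins and 2289 to 2309 in Ins/Del libraries. Of 4 mesoderm genes, 3 were tested and 1 (*T*) fell in each mutant, with summed levels of 52.2 to 71.2, 22.6 to 43.6 and 15.3 to 28.9, and *Mesp1* had 0 reads in the control libraries. Of the 8 ESC markers, 6 rose and 1 fell in Ins/Ins, and 5 rose in Ins/Del. Of all tested genes, 29.0% rose and 29.4% fell in Ins/Ins, and 30.6% rose and 31.9% fell in Ins/Del. *Zfp42*, which marks naive pluripotency and was named after its values were seen, rose by 0.90 (adjusted p = 1.4e-26) and 1.06 (adjusted p = 6.3e-29).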
